A study of Mus musculus with 12 samples.

Results

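The endoplasmic reticulum (ER) chaperone genes examined here are Hspa5, Hsp90b1, Dnajb9, Sdf2l1, Pdia4, Pdia6, Herpud1, Creld2, Xbp1 and Calr. They were taken by name, as a list of ER chaperones and targets of the transcription factors XBP1 and ATF6, with every probe set that the platform annotation gave to 1 of them. This yielded 10 genes and 21 probe sets, out of 18193 genes and 45101 probe sets on the array. No measured value entered the choice of a probe set for the list. The 10 genes themselves were chosen with earlier results of these data known.

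RNA from mouse embryonic fibroblasts (MEFs) was hybridised to 12 Affymetrix arrays, with 2 arrays for each of 6 groups. The groups were DMSO, AMN107, and each interferon (IFNa or IFNg) without AMN107 or, as AMN107-IFNa and AMN107-IFNg, with it. Interferon was given for 6 h after the AMN107 step. AMN107, also called nilotinib, inhibits ABL kinases, and the labels give neither its dose nor its duration. The labels name no genotype or line, and mark arrays as biological replicates without saying that they came from separate cultures, so p-values measure the spread between these arrays.

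When unfolded protein accumulates in the ER, the sensors IRE1, PERK and ATF6 start the unfolded protein response. IRE1 splices Xbp1 mRNA and ATF6 is cleaved in the Golgi, and both routes raise ER chaperones, disulphide isomerases and degradation factors. PERK phosphorylates eIF2alpha, which favours translation of ATF4, and ATF4 is shared with the response to amino acid shortage, whose kinase is GCN2. Genes of amino acid synthesis and transport are therefore a second readout that can be set beside the chaperones.

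The promoters of the 10 genes are shown first because several carry an element through which ATF6 acts on genes of this kind. The 250 bases before each annotated start (RefSeq, GRCm38.p6) were searched on both strands, and all 10 genes had a promoter entry. The ER stress element (ERSE, read as CCAAT, then 9 bases of any kind, then CCACG) was found in 5 of 10: Hspa5, Hsp90b1 with 2 copies, Pdia6, Creld2 and Calr. Of all 32851 promoters searched in the same way, 37 held it, which is 0.113%. Capitals mark the CCAAT and CCACG parts, or ATTGG and CGTGG where the match lies on the other strand. The Hspa5 stretch lies at chr2:34772005-34772063 on the plus strand, that of Hsp90b1 at chr10:86705513-86705676 on the minus strand and that of Pdia6 at chr12:17266471-17266529 on the plus strand. Creld2 is shown at chr15:88819500-88819558, plus strand, and Calr at chr8:84847055-84847113, minus strand.
Hspa5: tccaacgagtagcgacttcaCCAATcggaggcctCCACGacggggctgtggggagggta
Hsp90b1: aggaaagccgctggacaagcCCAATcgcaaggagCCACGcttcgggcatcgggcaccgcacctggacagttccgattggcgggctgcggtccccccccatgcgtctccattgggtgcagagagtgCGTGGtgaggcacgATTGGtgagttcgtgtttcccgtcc
Pdia6: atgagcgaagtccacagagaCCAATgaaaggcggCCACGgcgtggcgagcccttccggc
Creld2: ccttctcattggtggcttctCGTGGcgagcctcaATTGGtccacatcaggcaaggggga
Calr: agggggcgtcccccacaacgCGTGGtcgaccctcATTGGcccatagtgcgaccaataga

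Herpud1 held the related element ERSE-II (ATTGG, then 1 base of any kind, then CCACG), found in 10 of the 32851 promoters (0.0304%), at chr8:94386357-94386407 on the plus strand. It also held a match to the CARE element (TGATGNAAN), which is bound by ATF4 and CEBP partners, at chr8:94386296-94386344 on the plus strand. The CARE letters occurred in 1129 of all promoters (3.44%), in 1 of the 10 ER genes and in 10 of the 28 amino acid stress genes with a promoter entry. Asns, the asparagine synthetase gene, and Chac1, a glutathione-degrading enzyme gene, are printed as examples of the latter, from chr6:7693210-7693252 on the minus strand and chr2:119351028-119351076 on the plus strand. Capitals mark the letters fixed by each element, on either strand.
Herpud1 ERSE-II: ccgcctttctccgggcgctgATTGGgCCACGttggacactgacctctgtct
Herpud1 CARE: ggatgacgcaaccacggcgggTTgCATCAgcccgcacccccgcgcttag
Asns CARE: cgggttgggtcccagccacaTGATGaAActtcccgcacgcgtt
Chac1 CARE: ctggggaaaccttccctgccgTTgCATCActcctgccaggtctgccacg

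ERSE matched none of the 28 amino acid stress promoters and 5 of the 28 promoters found for other unfolded protein response genes (Canx, Dnajc3, Syvn1, Derl3 and Ero1b). The core of the XBP1-binding element UPRE (TGACGTG, in 1.65% of all promoters) was found in Hspa5 among the 10 genes. Dnajb9, Sdf2l1, Pdia4 and Xbp1 held none of the 4 elements in this window. A match describes these letters only, and the search says nothing of binding in these cells.

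**Figure D1:**
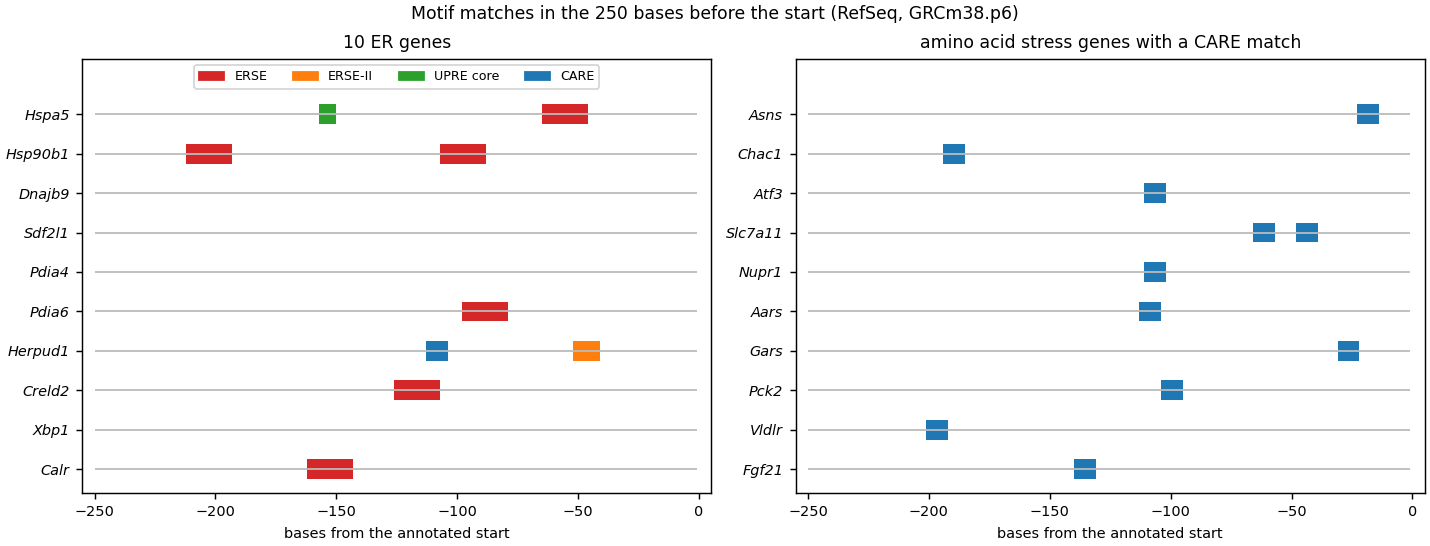
Positions of element matches in the 250 bases before the annotated start, in bases from the start, for the 10 ER genes (left) and the amino acid stress genes with a CARE match (right). ERSE boxes appear in 5 of the 10 ER genes and in no gene of the right panel.

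The arrays had median signals of 20.6 to 22.8, and 1 array stood apart. On IFNa replicate 2 the GAPDH probe sets for the 5' and 3' ends gave a ratio of 0.0252, against 1.07 to 1.16 on the other arrays, and the IFNa arrays differed with an SD of 0.401 on the log2 scale against 0.119 to 0.144 in the other groups. Signal of the array's lysX control probe set was 59.6 and 66.2 with DMSO and 81.1 and 45.4 with IFNa, whereas the other 8 arrays gave 36.1 to 41.4. Of 10 fibroblast markers, 7 lay above the array median on all arrays, Pdgfra on 11, and Thy1 and Lum on none. Of 7 leukocyte markers, Csf1r and Cd14 lay above it on 12 arrays, Cd68 on 11 and Lyz2 on 1, and Ptprc, Adgre1 and Itgam on 0. Of 5 markers of B cells and plasma cells, the latter being rich in ER chaperones, Mzb1 and Sdc1 lay above it on 12 and Cd79a on 8, and Jchain and Prdm1 on 0. In RNA from whole cultures, fewer cells expressing a gene and less RNA per cell cannot be told apart.

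Signals are linear probe set intensities, and differences are log2 differences of signal + 8.66 with their standard error (SE) from limma. A gene was represented by its brightest tested probe set, by mean log2 value over all 12 arrays. The p-values were adjusted by Benjamini-Hochberg over 12192 genes, and an adjusted p under 0.05 is called higher or lower. All 10 genes were tested, each above the array median on 12 arrays. Of the 21 probe sets, 19 were tested. The remaining ones, 1450620_at of Pdia4 and 1430983_at of Pdia6, lay above the median on 0 and 1 arrays.

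AMN107 without interferon raised 4 of the 10 genes and lowered 0, with Hsp90b1 and Pdia6 moving more than 2-fold and Hspa5, the main HSP70 of the ER, by 1.13-fold. Over all tested genes 20.7% were called higher and 14% lower. The median difference of the 10 genes was 0.18, against 0.02 for all tested genes. All AMN107 arrays lay above all DMSO arrays for 9 of the 10 genes, Xbp1 being the exception, and the same was seen for 42.7% of all tested genes. The IFNa arrays are no part of this comparison but enter the spread that all groups share. Without IFNa replicate 2, 7 genes were called higher, Sdf2l1 (adjusted p = 0.0137), Creld2 (0.0241) and Calr (0.00690) being added, and 32.2% of all tested genes were then called higher. The same 3 genes were added without IFNa replicate 1.

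Marker genes also differed between AMN107 and DMSO. Of 8 tested fibroblast markers, Fn1 (0.65) was higher and Col3a1 (-2.31), Pdgfrb (-1.29) and Col1a1 (-0.41) were lower, and the summed signal of the list was 4347 to 4501 with DMSO and 4951 to 5077 with AMN107. Most of that sum is Vim, at 2786 to 4816 over all arrays and not called. The median difference of the 8 markers was -0.22. Both tested epithelial markers, Krt8 (-0.71) and Epcam (-0.61), were lower, with summed signals of 161 to 163 and 96.5 to 109.6. Of 3 tested markers of B cells and plasma cells Mzb1 was lower (-0.39), with sums of 377 to 407 and 316 to 329.7. Of 3 tested leukocyte markers Csf1r was lower (-0.27), with overlapping sums of 279 to 291 and 284 to 293, and the 1 tested endothelial marker, Kdr, was lower (-0.34). The part of these shifts in the ER gene differences was not tested.

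Hsp90b1, the ER member of the HSP90 family (GRP94), gave signals of 925 and 835 on the DMSO arrays and 2071 and 2207 on the AMN107 arrays. IFNa arrays read 960 and 1717, IFNg arrays 1759 and 1840, AMN107-IFNa arrays 1978 and 2146, and AMN107-IFNg arrays 1939 and 2141. Every array that received AMN107 thus exceeded every array that did not. AMN107 alone differed from DMSO by 1.27 (SE 0.20, adjusted p = 0.00109), a 2.42-fold change, and it was called after leaving out any 1 of the 12 arrays. The second probe set of the gene did not follow: 1415889_a_at averaged 1075 with DMSO and 1109 with AMN107, a difference of 0.04 (SE 0.14, adjusted p = 0.821 when all probe sets were tested one by one). With DMSO and IFNa, 1438040_a_at, the probe set used, was the dimmer of the 2 (880 and 1339, against 1075 and 1630). It was the brightest over the 12 arrays only through its signal in the other groups, so its choice was not independent of this difference.

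Pdia6, an ER disulphide isomerase, read 542 and 573 with DMSO, 613 and 524 with IFNa, and 875 and 928 with IFNg. With AMN107 it read 1176 and 1244, with AMN107-IFNa 1264 and 1225, and with AMN107-IFNg 1234 and 1041. DMSO and IFNa overlapped, IFNg stood above both, and all AMN107 arrays stood above IFNg. AMN107 alone differed from DMSO by 1.11 (SE 0.10, adjusted p = 4.79e-05), which is 2.15-fold. The 4 arrays with the highest lysX signal are those with the lowest Pdia6 signal. They are also those with the lowest signal of the brightest Hsp90b1 probe set. The part of what lysX tracks in the differences of both genes was not tested.

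Dnajb9, the ER DnaJ cochaperone ERdj4, read 99.3 and 89.5 with DMSO and 151 and 155 with AMN107. Both AMN107 arrays exceeded both DMSO arrays, and the difference was 0.65 (SE 0.17, adjusted p = 0.0152). This call was lost when any 1 array of DMSO or AMN107 was left out, with an adjusted p of up to 0.0897.

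Hspa5 (BiP), the ER HSP70 that also holds the stress sensors inactive, read 3330 and 3506 with DMSO and 3850 and 3903 with AMN107. The groups did not overlap, but the difference was small at 0.18 (SE 0.06, adjusted p = 0.0305). It was lost without any 1 of these 4 arrays (adjusted p up to 0.192) and was 0.00 after the arrays were centred on their medians (adjusted p = 0.976). Its other probe sets disagreed: 1427464_s_at gave 0.13 (adjusted p = 0.543) and 1447824_x_at was called lower, at -0.32 (adjusted p = 0.0331). The mean of the 3 probe sets gave -0.00, so no direction for Hspa5 held across probe sets.

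The remaining 6 genes were not called. Sdf2l1, a partner of ER DnaJ proteins, differed by 0.24, Creld2, an ER-resident calcium-binding protein, by 0.18 and Herpud1, a component of ER-associated degradation, by 0.18. The disulphide isomerase gene Pdia4 differed by 0.16, Calr, the lectin chaperone calreticulin, by 0.18 and Xbp1 by -0.02. Their adjusted p-values ran from 0.107 for Creld2 to 0.956 for Xbp1. Median centring brought Sdf2l1 to 0.06 and Creld2, Herpud1 and Calr each to at most 0.01, and it put Pdia4 at -0.02.

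**Figure D2:**
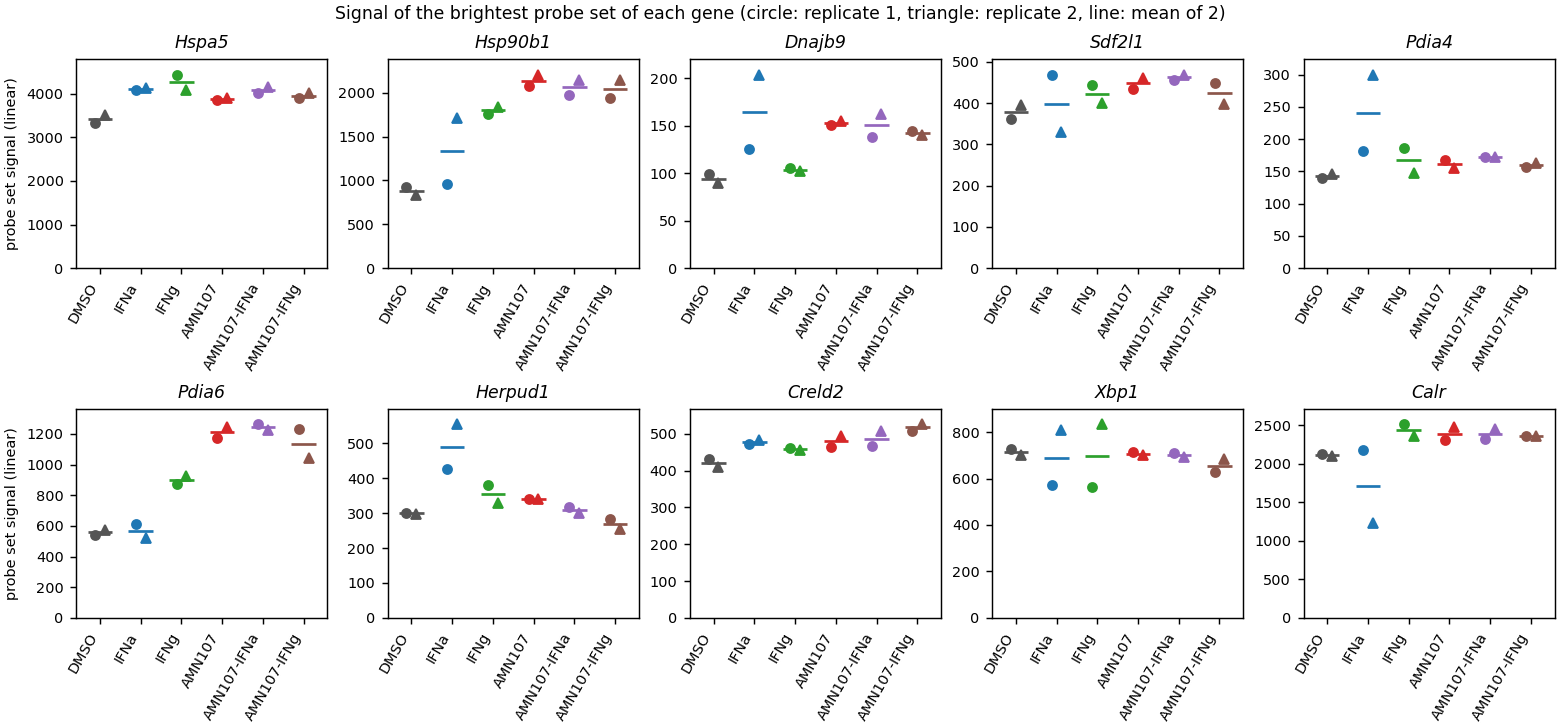
Linear signal of the brightest probe set of each gene on each array, by group (circle, replicate 1; triangle, replicate 2; line, mean of 2 arrays). The AMN107 arrays of Hsp90b1 and Pdia6 lie above all arrays without AMN107, while Hspa5 spans 3330 to 4436 over the 12 arrays.

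Xbp1 is the transcription factor gene of the IRE1 route. Its brightest probe set, 1437223_s_at, averaged 715 with DMSO and 707 with AMN107. Another, 1420886_a_at, read 321 (range 316 to 326) with DMSO and 633 (range 614 to 651) with AMN107, a difference of 0.96 (SE 0.17, adjusted p = 0.00283 over all probe sets). The probe set 1420011_s_at, gave 0.54 (adjusted p = 0.0601), and 1420012_at gave -0.28 (adjusted p = 0.171). The 4 probe sets thus did not share a direction. On 1420886_a_at the lowest signals were those of the 4 arrays with the highest lysX signal, whose part was not tested. Whether they separate spliced from unspliced Xbp1 mRNA is not given in the sources used here. Calr was the gene whose probe sets were most alike, with differences of 0.18, 0.14 and 0.16 that were not called.

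Herpud1 was measured by 1448185_at and 1435626_a_at, which gave 0.18 and -0.08 in the same comparison. When each probe set was tested on its own, 5 of the 19 were called higher and 1 lower for AMN107 against DMSO, against 22% higher and 11.5% lower over all 21249 probe sets tested that way. Over 5 genes with several probe sets, 3 had probe sets of both signs.

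**Figure D3:**
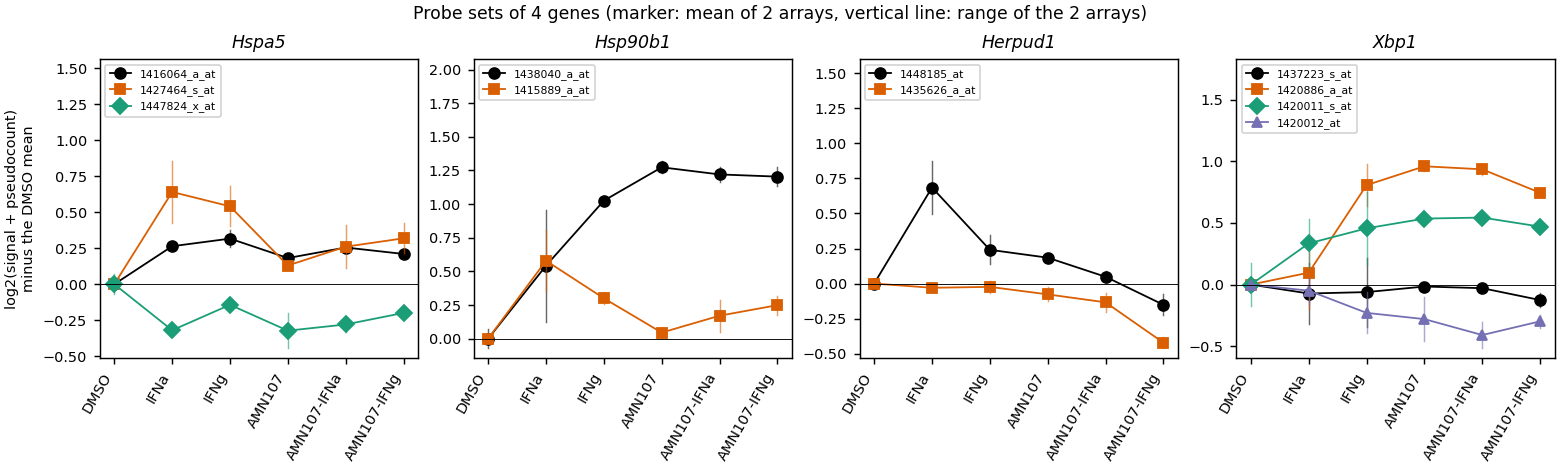
Group means of every tested probe set of Hspa5, Hsp90b1, Herpud1 and Xbp1, as log2(signal + 8.66) minus the DMSO mean of that probe set (vertical lines, range of 2 arrays). With AMN107 alone, 1438040_a_at of Hsp90b1 stands at 1.27 and 1415889_a_at at 0.04.

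With IFNa present, AMN107 raised Pdia6 and Hsp90b1 and lowered Herpud1. In this comparison 11.3% of tested genes were called higher and 14.7% lower, and the median of the 10 genes was 0.03 against -0.01 for all tested genes. Pdia6 differed by 1.12 (SE 0.10, adjusted p = 7.72e-05). Hsp90b1 differed by 0.68 (SE 0.20, adjusted p = 0.0300). The call of Hsp90b1 was lost without either AMN107-IFNa array (adjusted p up to 0.141). Its IFNa arrays were far apart, and without IFNa replicate 2 the difference was 1.09 (adjusted p = 8.62e-08). Its second probe set gave -0.41 (adjusted p = 0.0511), and the mean of both gave 0.13 (adjusted p = 0.596). Xbp1 was not called by its brightest probe set (0.04), while 1420886_a_at was called higher (0.84, adjusted p = 0.00684 in limma over all probe sets). The Xbp1 probe sets 1420011_s_at (0.21) and 1420012_at (-0.36) were not called.

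Herpud1 read 425 and 555 on the IFNa arrays and 319 and 300 on the AMN107-IFNa arrays. Both AMN107-IFNa arrays were below both IFNa arrays, by -0.64 (SE 0.13, adjusted p = 0.00485), and without IFNa replicate 2 by -0.45 (adjusted p = 0.00152). Its probe set 1435626_a_at gave -0.10 (adjusted p = 0.448). With IFNg present the same contrast gave -0.39 for Herpud1 (SE 0.13, adjusted p = 0.0529), and -0.40 for 1435626_a_at (adjusted p = 0.0166 over probe sets).

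Alongside IFNg, Pdia6 was the 1 gene called, at 0.33 (SE 0.10, adjusted p = 0.0494), with 13.4% of tested genes higher and 5.76% lower. It was called in 3 of 12 fits that each left out 1 array, namely either IFNa array or AMN107-IFNg replicate 2, and it missed the threshold after quantile normalization (0.27, adjusted p = 0.140) and median centring (0.23, adjusted p = 0.152). Hsp90b1 gave 0.18 (adjusted p = 0.575) and Dnajb9 0.43 (adjusted p = 0.113). The median of the 10 genes was -0.02, against 0.01 for all tested genes. Without IFNa replicate 2, 5 genes were called, Hsp90b1, Dnajb9, Pdia6 and Creld2 higher and Herpud1 lower, with 25.9% of all tested genes higher and 14.5% lower. The same 5 were called without IFNa replicate 1.

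Averaged over the 3 states, Pdia6 (0.85), Hsp90b1 (0.71) and Dnajb9 (0.33) were higher with AMN107 and Herpud1 was lower (-0.28). By state (without interferon, with IFNa, with IFNg), Herpud1 gave 0.18, -0.64 and -0.39, and Dnajb9 0.65, -0.09 and 0.43. Pdia6 gave 1.11, 1.12 and 0.33, and Hsp90b1 1.27, 0.68 and 0.18. For the average, called shares of all tested genes were 26% higher and 22% lower. Hsp90b1, Pdia6 and Herpud1 were called in each of 12 fits with 1 array left out, and Dnajb9 in 10, the exceptions being DMSO replicate 2 and AMN107-IFNa replicate 2 (adjusted p up to 0.0602). The second Hsp90b1 probe set, 1415889_a_at, averaged -0.14 (adjusted p = 0.174), and 1435626_a_at of Herpud1 was also called lower, at -0.19 (adjusted p = 0.0138). Of the Xbp1 probe sets, 1420886_a_at was called higher (0.58, adjusted p = 0.00105) and 1420012_at lower (-0.24, adjusted p = 0.0461). The brightest (-0.01) and 1420011_s_at (0.25) were not called.

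**Figure D4:**
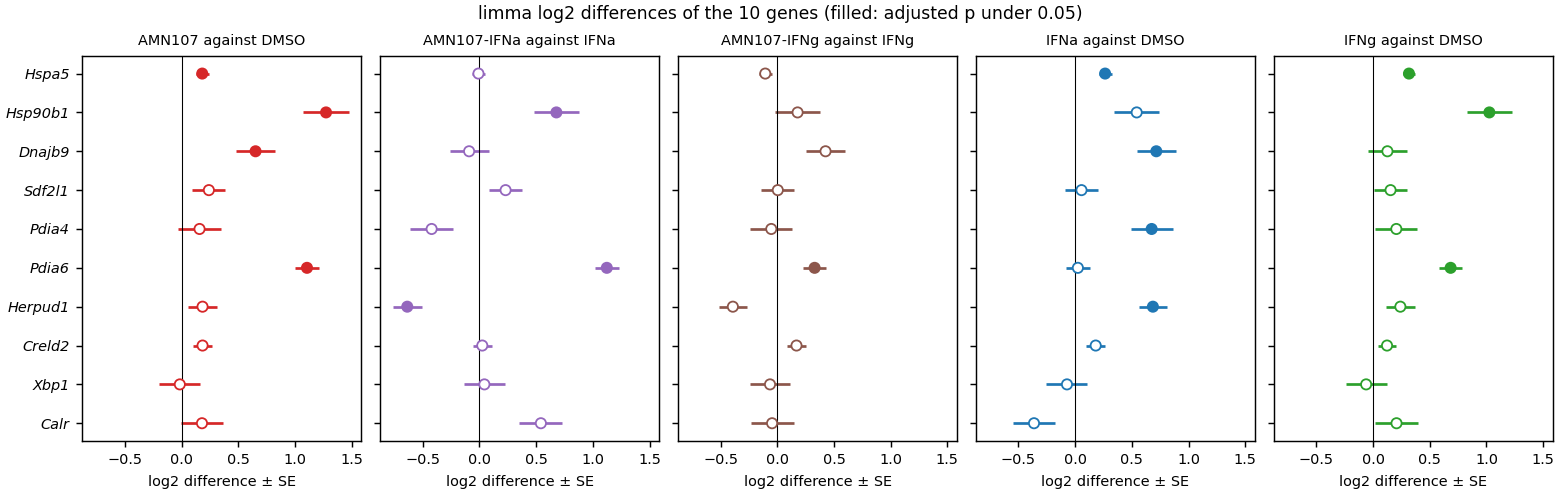
limma log2 differences of the 10 genes with their SE in 5 comparisons (filled, adjusted p under 0.05). The point of Pdia6 is filled in all 3 AMN107 panels and that of Hsp90b1 in 2 of them. Herpud1 is filled to the left of 0 for AMN107-IFNa against IFNa and to the right for IFNa against DMSO.

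Without AMN107, IFNa was called for 4 of the 10 genes and IFNg for 3, and the IFNa calls depended on the fit. These comparisons share the DMSO arrays with each other and with AMN107 against DMSO. IFNa raised Dnajb9 (0.72, SE 0.17, adjusted p = 0.0317), Herpud1 (0.69, SE 0.13, adjusted p = 0.0152), Pdia4 (0.67, SE 0.19, adjusted p = 0.0396) and Hspa5 (0.26, SE 0.06, adjusted p = 0.0248). With array weights, or with only the groups compared in the fit, 0 of the 10 genes were called by limma, and with 1 array left out 0 to 7. Of all tested genes 12.9% were called higher and 4.7% lower. For Hspa5 the probe set 1427464_s_at was also called higher (0.64, adjusted p = 0.0369), while 1447824_x_at gave -0.32 (adjusted p = 0.0582). For Herpud1 the probe set 1435626_a_at gave -0.03 (adjusted p = 0.823).

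The array with the low GAPDH ratio bears on this comparison. Pdia4 read 140 and 146 with DMSO and 181 and 299.9 with IFNa, the higher value being replicate 2. Dnajb9 read 126 and 204 with IFNa, again with replicate 2 higher. Without replicate 2 the differences were 0.39 for Dnajb9 (adjusted p = 0.0325), 0.50 for Herpud1 (adjusted p = 0.00527), 0.26 for Hspa5 (adjusted p = 0.0156) and 0.32 for Pdia4 (adjusted p = 0.0769). Calr read 2180 on replicate 1 and 1233 on replicate 2, against 2124 and 2100 with DMSO. Hspa5 and Herpud1 were not called without either DMSO array (adjusted p up to 0.177 and 0.117). Dnajb9 was called in 4 of the 12 fits that left out 1 array, and Pdia4 in 1, the fit without IFNa replicate 1. Median centring gave 0.09 for Hspa5 (adjusted p = 0.245) and kept Herpud1 at 0.51 (adjusted p = 0.0157).

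IFNg raised Hsp90b1 (1.03, SE 0.20, adjusted p = 0.0109), Pdia6 (0.68, SE 0.10, adjusted p = 0.00274) and Hspa5 (0.32, SE 0.06, adjusted p = 0.00678), 3 of 10 genes, with 6.12% of tested genes higher and 2.93% lower. Hspa5 read 4436 and 4087 with IFNg, above both DMSO arrays. Its other probe sets were not called, 1427464_s_at giving 0.54 (adjusted p = 0.0562) and 1447824_x_at -0.14 (adjusted p = 0.414), nor was 1415889_a_at of Hsp90b1 (0.30, adjusted p = 0.201). Pdia6 was called after leaving out any 1 array; Hsp90b1 was not called without any 1 of the DMSO and IFNg arrays (adjusted p up to 0.0853), nor Hspa5 without replicate 1 of DMSO or of IFNg (up to 0.0940). Without IFNa replicate 2 the count was 5, Herpud1 and Calr being added, with 16.2% of all tested genes higher, and the same genes were added without IFNa replicate 1. IFNg was also the state in which the Xbp1 probe set 1420886_a_at was called higher than DMSO (0.81, SE 0.17, adjusted p = 0.0180). The lysX signal was lower with IFNg, at 40.6 and 36.1, than with DMSO, as it was with AMN107, and its part was not tested.

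In cells that had AMN107, adding interferon gave 0 calls by limma among the 10 genes. The largest difference was that of Herpud1 with IFNg, at -0.34 (SE 0.13, adjusted p = 0.351). Over all tested genes 0.254% were called higher and 0% lower with IFNa, and 2.49% higher and 0.107% lower with IFNg.

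Whether AMN107 altered the interferon difference was tested by the interaction. For IFNg, Pdia6 was called at -0.78 (SE 0.15, adjusted p = 0.0379), against 0.894% of tested genes lower and 0.131% higher. All 10 genes had a negative value, with a median of -0.23 against 0.02 for all tested genes, and all 10 values come from the same 8 arrays. Of these 8, only the DMSO arrays had a high lysX signal (59.6 and 66.2, against 36.1 to 41.4), and its part was not tested. Of 12192 tested genes, 6471 had a positive value. The shared sign did not hold under other scaling. After quantile normalization 2 of the 10 genes were positive (median -0.18, against 0.06 for all tested genes). After median centring 2 were positive as well (median -0.15, against 0.10). Hsp90b1 gave -1.10 (SE 0.28, adjusted p = 0.124), and its probe set 1415889_a_at -0.10 (adjusted p = 0.894). The Pdia6 call was made in 2 of 12 fits with 1 array left out, those without an IFNa array, with values of -0.90 to -0.65 over the 12. Without IFNa replicate 2, Hspa5, Hsp90b1, Pdia6, Herpud1 and Calr were called lower, with 9.31% of all tested genes, and the same 5 without IFNa replicate 1. For IFNa, limma called 0 of 10 genes. Herpud1 had the most negative value there, at -0.82 (SE 0.18, adjusted p = 0.145), while its probe set 1435626_a_at gave -0.03 (adjusted p = 0.910), and 0.205% of tested genes were called lower.

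The genes did not vary as a block over the arrays. Over the 45 pairs of the 10 genes, Pearson correlations across the 12 arrays ran from -0.80 (Pdia4 with Calr) to 0.83 (Pdia4 with Herpud1), with a median of 0.22. Hsp90b1 and Pdia6 reached 0.82. These values describe arrays that share groups, and IFNa replicate 2 enters all of them. The tested genes with signals most like Hspa5 over the 12 arrays were Taf1 (r = 0.93), Agpat3 (0.91), Phf20l1 (0.91), Ugcg (0.90) and Exosc10 (0.90).

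The order of the groups differed between genes. Hspa5 was highest with IFNg (4261 ± 247, SD, n = 2) and lowest with DMSO (3418 ± 124), and the 5 treated groups each overlapped a neighbour in the order. By group mean, Dnajb9, Pdia4 and Herpud1 were highest with IFNa. For Dnajb9 this rests on replicate 2 (204), replicate 1 (126) lying below all arrays with AMN107. For Pdia4 replicate 2 read 299.9, while replicate 1 (181) lay below IFNg replicate 1 (187). Hsp90b1 and Pdia6 were highest in the AMN107 groups, whose ranges overlapped each other. Herpud1 was lowest with AMN107-IFNg (269 ± 20.3), below DMSO (299 ± 0.0665), and Creld2 was highest there (517 ± 12.6). The highest array exceeded the lowest by between 1.29-fold, for Creld2, and 2.64-fold, for Hsp90b1.

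Set beside the ER chaperones, the amino acid stress genes of the ATF4 programme moved in larger numbers with AMN107. All 34 were tested, and 26 were higher and 2 lower against DMSO, with a median of 0.54 against 0.18 for the 10 ER genes. In the presence of IFNa, 17 were higher and 1 lower (median 0.34), and with IFNg 22 and 1 (median 0.49). The 18 calls with IFNa present were 10 with array weights and 2 with only the groups compared in the fit. Over all tested genes 20.7% were higher and 14% lower against DMSO. The shares were 11.3% and 14.7% with IFNa present, and 13.4% and 5.76% with IFNg. Over the same 3 states the ER genes had medians of 0.18, 0.03 and -0.02. Lists are described here by counts and medians, and the difference between them was not tested. All of the lists were chosen with earlier results of these data known.

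Cth, which makes cysteine by transsulphuration, rose by 2.32 (SE 0.19, adjusted p = 2.02e-05), from 257 ± 5.28 to 1323 ± 15.4 (SD, n = 2). Aldh1l2, a mitochondrial folate enzyme, rose by 2.28 (SE 0.10, adjusted p = 6.33e-07). Atf5, a relative of Atf4, rose by 1.51, the serine synthesis gene Psph by 1.31 and the amino acid transporter subunit gene Slc3a2 by 1.24. Ddit3 (CHOP), which both PERK and GCN2 routes can induce, rose by 1.13 (SE 0.16, adjusted p = 0.000589). Against the list, the mTORC1 inhibitor gene Ddit4 fell by 0.66 and Stc2, a secreted glycoprotein gene, fell by 0.49 on the log2 scale.

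Other genes of the unfolded protein response lay between the 2 lists. Of 36 tested, 15 were higher and 2 lower with AMN107 against DMSO, with a median of 0.28. Of all tested genes 20.7% were higher and 14% lower. The disulphide isomerase genes Pdia5 (1.76, SE 0.09, adjusted p = 1.26e-06) and Pdia3 (1.20, SE 0.10, adjusted p = 2.43e-05) rose most. Sel1l, an adaptor of ER-associated degradation, rose by 0.92, the ER to Golgi SNARE gene Bet1 by 0.89, Edem2 by 0.72 and the COPII coat gene Sec24d by 0.72. Other probe sets of Sel1l gave 0.83 and 0.36, both called, and 0.25 (adjusted p = 0.0676) and -0.03 (adjusted p = 0.827), not called. Canx, the membrane-bound relative of calreticulin, was lower by its brightest probe set (-0.36), whereas 1422845_at of Canx gave 0.78 (adjusted p = 0.0124). Derl3 was also lower, at -0.36.

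Pdia3, like Pdia6, stood higher with IFNg and with AMN107 than with DMSO: it read 752 and 918 with DMSO, 1825 and 1911 with IFNg and 1862 and 1966 with AMN107. Its interaction with IFNg was -1.12 (SE 0.14, adjusted p = 0.00798), and it rose by 1.16 with IFNg alone. IFNa arrays of Pdia3 read 1093 and 1237, above DMSO and below IFNg. The DMSO and IFNa arrays, which had the highest lysX signal, were its lowest, and the part of this was not tested.

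Of 11 tested cytosolic heat shock genes, 6 were higher and 0 lower with AMN107 against DMSO (median 0.25), beside 20.7% and 14% of all tested genes. The 6 were Hsph1 (0.59), Hspa1b (0.59, which has the near-identical copy Hspa1a), Hsp90aa1 (0.55), Dnaja1 (0.35), Dnajb1 (0.26) and Hspa8 (0.25), all cytosolic chaperones or cochaperones. Probe sets of these genes disagreed: the other 3 of Hspa8 gave -0.13, -0.17 and 0.02, none called, and those of Hsp90aa1 gave 1.81 (called), 0.11 and 0.07. For Dnaja1, 1459835_s_at gave -0.44 (adjusted p = 0.0910) and 1460179_at 0.54, whereas other probe sets of Hsph1 (1.36) and Dnajb1 (0.93) were called higher too. With IFNa present 3 of the 11 genes were higher and 2 lower, and with IFNg 3 and 0. Shares of all tested genes were 11.3% higher and 14.7% lower with IFNa present, and 13.4% and 5.76% with IFNg.

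**Figure D5:**
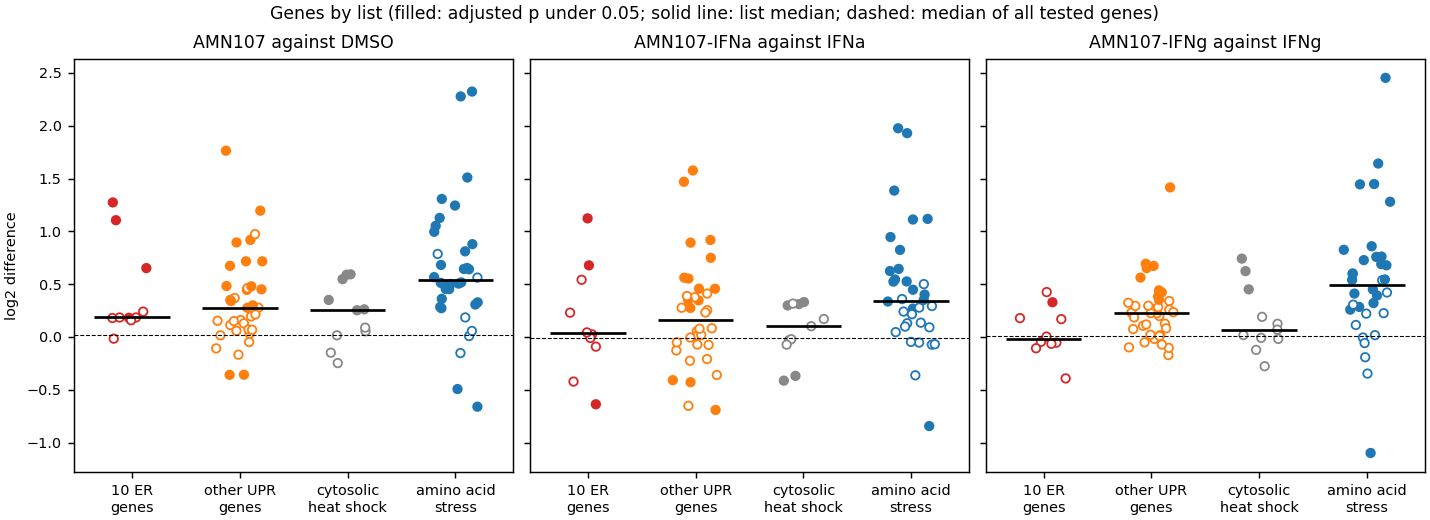
log2 differences of single genes by list in the 3 AMN107 comparisons (filled, adjusted p under 0.05; solid line, list median; dashed line, median of all tested genes). The solid line of the amino acid stress genes stands at 0.54, 0.34 and 0.49, and that of the 10 ER genes at 0.18, 0.03 and -0.02.

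Scaling moved the whole distribution. The median of all tested genes for AMN107 against DMSO was 0.02 as deposited, -0.08 after quantile normalization and -0.16 after median centring. The called genes split 59.7% higher as deposited, 38.9% and 26.4%. Over all tested genes 1682 were called higher and 2639 lower after quantile normalization, and 1482 and 4142 after median centring. Medians of the ER genes were then 0.11 and 0.01, and those of the amino acid stress genes 0.45 and 0.36, with 20 higher and 2 lower and then 18 higher and 2 lower. Other unfolded protein response genes had medians of 0.12 (10 higher, 3 lower) and 0.10 (9 higher, 3 lower), and cytosolic heat shock genes 0.19 (5 higher, 1 lower) and 0.07 (4 higher, 3 lower). Hsp90b1 kept 1.20 and 1.09, Pdia6 0.98 and 0.93, and Dnajb9 0.45 and 0.47, each called under both scalings.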

How the data were processed

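The deposited series table holds linear probe set signals (intensity) that the authors made with MAS5, per the submitters' processing notes, with no version or scaling rule. The 2% trimmed mean ran from 100.4 to 113.5. Probe sets were named through the platform annotation: 34945 carried 1 gene, 932 several and 9160 none, and 64 were controls. Gene IDs matched a RefSeq table (GRCm38.p6) for 34741 of these, and 0 symbols changed.

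Signals were taken as log2(signal + 8.66), the pseudocount being the mean over arrays of the 25th percentile. Probe sets above the array median on at least 2 of 12 arrays were tested, and the brightest of a gene was used. With limma 3.58.1 (R 4.3.3), all 12 arrays entered 1 model with a mean for each group (eBayes with a trend, two-sided, Benjamini-Hochberg over 12192 genes, threshold 0.05). No further normalization was applied, and the code was tested on simulated data. The number of arrays limits the precision, and the spread is shared by all groups, so the wider IFNa arrays raise it for every test.

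The 10 genes and the gene lists were chosen with earlier results of these data known. Named genes were all 10 ER genes, up to 6 genes with the largest called difference for AMN107 against DMSO in each other list, up to 3 called against the direction of their list, and the 5 genes most correlated with Hspa5. Dnajc3, Syvn1, Ero1b, Asns and Chac1 were named for their promoters alone. Replicate numbers were not used as pairs: over 15 pairs of groups the deviations of same-numbered arrays correlated at -0.14 to 0.31, above 0.1 in 4. Alternatives covered scaling, the pseudocount, the filter, the choice of probe set, array weights, the arrays in the fit and a replicate block.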

Additional observations from a re-analysis of the deposited data

Results flagged for a closer look

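Pdia6 and Pdia3 had a response to AMN107 that differed with and without IFNg, by the test of the interaction itself. It was -0.78 for Pdia6 (SE 0.15, adjusted p = 0.0379 in limma) and -1.12 for Pdia3 (SE 0.14, adjusted p = 0.00798). For Pdia6 the interaction was -0.72 after quantile normalization (adjusted p = 0.0902) and -0.70 after median centring (adjusted p = 0.0795). As given above, the Pdia6 call also depended on the arrays in the fit. With IFNg present, AMN107 gave 0.33 for Pdia6 and 0.07 for Pdia3. Of the groups in this interaction, only DMSO had a high lysX signal (59.6 and 66.2, against 36.1 to 41.4), and its part was not tested.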

How the results depend on the processing

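Directions held for called genes in all alternatives run, except Hspa5 for AMN107 against DMSO, which was -0.0037 over the mean of its probe sets. Apart from that mean, each alternative used the brightest probe set of a gene, so the directions of other probe sets were not covered. Other probe sets of Hspa5, Hsp90b1 and Herpud1 had the opposite sign in some comparisons where the gene was called, as given above. Among uncalled values, 85 of 1791 changed sign. Counts of the 10 ER genes called moved by over 1.5 times as follows. For AMN107 against DMSO (4) the count was 7 with array weights, 7 without both IFNa arrays and 8 with only the groups compared, and 2 to 7 with 1 array left out. For AMN107-IFNa against IFNa (3) it was 1 with only the groups compared, and 2 to 7 with 1 array left out. For AMN107-IFNg against IFNg (1) it was 2 after median centring (0 higher, 2 lower), 0 with no filter, 2 with a 75th percentile filter, 2 over the mean of probe sets, 3 with array weights, 5 without both IFNa arrays, 4 with only the groups compared, and 0 to 5 with 1 array left out. For IFNa against DMSO (4) it was 2 after quantile normalization, 2 after median centring, 0 with array weights, 0 with only the groups compared, and 0 to 7 with 1 array left out. For IFNg against DMSO (3) it was 5 without both IFNa arrays and 1 to 5 with 1 array left out. For AMN107-IFNg against AMN107 (0) it was 1 with array weights, 1 without both IFNa arrays, 1 with only the groups compared, and 0 to 1 with 1 array left out. The interaction with IFNg (1) gave 0 after quantile normalization, 0 after median centring, 4 with array weights, 5 without both IFNa arrays, 5 with only the groups compared, and 0 to 5 with 1 array left out. The interaction with IFNa (0) gave 0 to 6 and the average AMN107 effect (4) 3 to 8 with 1 array left out. Amino acid stress genes called for AMN107-IFNa against IFNa (18) were 10 with array weights and 2 with only the groups compared. With 1 array left out, they were 19 to 30 for AMN107 against DMSO, 13 to 23 with IFNa and 16 to 29 with IFNg. Alternatives for this list were added after the data were seen. The cause of these shifts was not tested. A lone array left in a group is assumed to vary like the other groups.

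With the replicate number as a block, the count for AMN107-IFNg against IFNg was 0 (Pdia6, adjusted p = 0.0563), and the counts of the other comparisons of the 10 genes stayed within 1.5 times. The share of calls that were higher moved with scaling also for IFNa against DMSO (73.2% as deposited, 44.6% after quantile normalization, 16.1% after median centring), IFNg against DMSO (67.6%, 43.4%, 46.8%), AMN107-IFNg against IFNg (69.9%, 55.5%, 42.6%), the average AMN107 effect (54.2%, 42.1%, 34.4%) and the interaction with IFNa (0%, 0%, 82.9%). Signal over background is not given in the sources used here, so dim probe sets have no stated limit.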
